A study of Mus musculus with 2 samples.

Results

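Transcripts that the GENCODE M21 annotation types as retained_intron were examined in the adrenal gland of newborn mice. A transcript was included when its gene had a mean of 5 TPM or more over both libraries in the alignment-based gene tables. TPM (transcripts per 1000000) is a read count divided by effective length and scaled to the same total in each library. This held for 16634 of 21848 retained_intron transcripts, or 76.1%, in 6329 of the 10538 genes at that level. The genes had a median of 2 such transcripts each, and 2246 genes had 1. The transcripts were thus chosen by annotated type and by the measured mean TPM of the gene, which includes their own TPM, but not by their share of the gene or by the agreement of the libraries. Just inside the limit lay Unc80 and Fam20a, both at a mean of 5.005 TPM, and just outside it Pradc1 at 4.995 and Tmco6 at 4.99 TPM.

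The series held 1 group of 2 total RNA libraries, taken from males aged 4 days of the cross B6CASTF1/J, the F1 hybrids of C57BL/6J and CAST/EiJ. The samples carry different male and biosample labels but a single donor label, and the comparisons below are between these 2 libraries only. Each was made from 300 ng of RNA, depleted of ribosomal RNA per the spike-in label, with a directional kit, and the labels name no treatment or second condition. The adrenal cortex markers had median levels of 911 and 810 TPM in replicates 1 and 2, and the chromaffin cell markers 294 and 257 TPM. All 12 liver markers were also found, with medians of 8.88 and 271 TPM and sums of 240 and 6269 TPM in the same order, and erythroid markers summed to 2410 and 4419 TPM. Whether these differences in tissue makeup play a part in the differences between the libraries below was not tested. Fewer cells of a type and less RNA per cell cannot be told apart in such bulk samples.

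Introns are normally removed from the primary transcript in the nucleus before export. A transcript that keeps an intron is often held in the nucleus or, if it reaches the ribosome and meets a premature stop codon, degraded by nonsense-mediated decay. Retention is known as a mode of regulation for several genes of the splicing machinery, among them the Clk kinases that phosphorylate serine- and arginine-rich (SR) splicing factors. Total RNA holds nuclear RNA and incompletely spliced RNA beside messenger RNA. The annotated type marks a transcript model that includes sequence which is intronic in another transcript of its gene, and says nothing of how it arises.

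Most of these models are fragments rather than whole messages with an intron kept in. Their median length was 836 bases, against 1244 bases for the 33457 other transcripts of the same genes. Only 5401 of the 16634 (32.5%) contained a complete intron of another transcript of the gene. Of the other 11233, 11160 had an end inside an intron. The bases that lie in no exon of any other type of transcript of the gene, called own bases here, made up a median of 41.3% of a transcript's length. The rest of each transcript is sequence whose reads must be divided among transcripts by the quantification.

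The complete introns show what such a transcript adds to a message. The 7 shown here lie between coding exons and are held by transcripts at 17.8 TPM or more in each library. They are given 5′ to 3′ on the strand of the gene from the GENCODE M21 transcripts (mm10, the C57BL/6J reference, so the CAST/EiJ allele is not shown), with the terminal dinucleotides, the core of the splice sites, in capitals.
Rps20-201, chr4:3835292-3835483 (-): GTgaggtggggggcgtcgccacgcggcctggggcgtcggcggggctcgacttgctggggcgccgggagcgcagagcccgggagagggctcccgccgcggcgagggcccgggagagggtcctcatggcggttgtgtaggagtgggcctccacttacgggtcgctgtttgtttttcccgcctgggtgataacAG
Rps16-202, chr7:28352274-28352362 (+): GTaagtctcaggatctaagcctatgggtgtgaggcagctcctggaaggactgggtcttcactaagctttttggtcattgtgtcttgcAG
Ncl-202, chr1:86352320-86352509 (-): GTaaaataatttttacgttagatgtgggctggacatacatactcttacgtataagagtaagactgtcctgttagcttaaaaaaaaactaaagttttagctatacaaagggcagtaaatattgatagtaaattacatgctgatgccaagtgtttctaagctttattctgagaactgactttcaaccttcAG
Prelid1-202, chr13:55324445-55324526 (+): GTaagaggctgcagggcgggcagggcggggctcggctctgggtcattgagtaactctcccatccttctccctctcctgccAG
Mrps26-201, chr2:130564228-130564307 (+): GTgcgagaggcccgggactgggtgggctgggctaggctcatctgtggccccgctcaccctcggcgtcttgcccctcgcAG
Timm17b-203, chrX:7906200-7906280 (+): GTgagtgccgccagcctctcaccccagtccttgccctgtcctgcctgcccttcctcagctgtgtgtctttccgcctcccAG
Cyp21a1-203, chr17:34802237-34802304 (-): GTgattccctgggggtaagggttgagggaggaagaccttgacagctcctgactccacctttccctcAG
Every one of the 7 begins with GT and ends with AG. The introns of Rps20, Rps16, Ncl and Cyp21a1 hold a stop codon in the reading frame that enters them. Those of Prelid1 (82 bases) and Mrps26 (80 bases) hold none but are not a multiple of 3 in length, so they shift the frame. The Timm17b intron, 81 bases long, neither stops nor shifts it.

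Across all genes, 7771 complete introns of 30 bases or more were held by retained-intron transcripts, in 3123 genes. They were short: their median length was 284 bases, against 1116 bases for the 51455 other introns of the same genes. In 2591 of 3096 genes with both kinds (83.7%) the median held intron was the shorter. This compares annotation models, since transcripts over long introns would have to be long themselves to contain them. GC content fell with length along the held introns, from a median of 57.0% in the 1406 introns of up to 100 bases to 43.7% in the 1359 introns of over 1000 bases. The TPM share carried by their transcripts changed little along the same order, from a median of 5.87% to 4.8% of the gene. GT-AG ends were found in 97.8% of held introns, GC-AG ends in 1.45% and AT-AC ends in 0.129%. Among 6089 held introns between coding exons, 5420 (89.0%) contained an in-frame stop. The 669 without a stop had a median length of 94 bases, and 179 of them were a multiple of 3 in length.

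A small set of held introns carried the donor letters typical of introns that the minor, U12-dependent spliceosome removes. The first 6 bases were GTATCC or ATATCC, read on the gene's strand only, in 53 of 7771 held introns (0.682%). Their transcripts carried a median of 5.77% of the gene's TPM, against 5.45% for all held introns. The donor sites of the Pcyt2, Polr2e and Usp21 introns are printed with the last 3 exon bases in lower case and the intron's first 6 bases in capitals.
Pcyt2, chr11:120612084-120612462 (-): tccGTATCC
Polr2e, chr10:80036843-80036914 (-): ataGTATCC
Usp21, chr1:171282803-171283014 (-): tccATATCC
The Pcyt2 transcript with this intron, from the gene for a phosphatidylethanolamine synthesis enzyme, reached 6.67 and 9.64 TPM, or 15.04% and 18.8% of its gene. In Polr2e, a subunit gene of RNA polymerase II, 3 transcripts with the intron together reached 3.48 and 4.98 TPM. In Usp21, a deubiquitinase gene, 2 of them reached 2.79 and 4.69 TPM, or 14.9% and 25.8% of the gene. All 3 were higher in replicate 2, as most retained-intron transcripts were.

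Most retained-intron transcripts were scarce, and a few were among the abundant RNAs of the gland. Their median level was 0.84 TPM, and 7287 (43.8%) reached a mean of 1 TPM, 321 reached 10 TPM and 15 reached 100 TPM. In both libraries 769 were listed at 0. For a transcript of 1000 bases, 3 counts came to 0.102 and 0.113 TPM in replicates 1 and 2, so levels far under 1 TPM rest on few reads. The libraries held 32231300 and 30292851 expected counts on annotated transcripts, of which 3.26% and 3.90% fell on the retained-intron transcripts studied. The 10 highest transcripts made up 7.93% ± 0.0749 (SD, n = 2) of their summed TPM, and the 175 from ribosomal protein genes 9.77% ± 0.844. In the alignment-free tables these were 12.1% ± 0.794 and 19.6% ± 1.12, the median level was 1.54 TPM, and 67 transcripts reached 100 TPM.

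Ribosomal protein genes led the order of levels. Rps18-210 had 316 and 370 TPM in replicates 1 and 2. Rps16-203 stood at 336 and 349 TPM and Rps26-202 at 319 and 320 TPM. For Rps16-203 and Rps26-202, the deposited credibility intervals of the libraries overlapped, as they did not for Rps18-210 (289 to 327.5 and 337 to 376 TPM). Which level these intervals have is not stated in the labels or headers. Own bases were few in these leaders, with 98 of 499 bases in Rps18-210 and 68 of 518 in Rps16-203. Ribosomal protein genes also have many processed pseudogene copies that can take part in the division of reads.

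Outside that family, Itm2b-202, from a gene for a membrane protein precursor, had 163 and 166 TPM. Ctsb-202, from the gene for the lysosomal protease cathepsin B, had 123 and 122 TPM with 91 own bases of 801. Atp5j-208 and Ndufc1-203, from genes for subunits of ATP synthase and of respiratory complex I, had 123 and 127 TPM and 105 and 108 TPM, but Ndufc1-203 was listed at 0 in both alignment-free libraries. The transcript furthest apart between the libraries among the 15 was Trf-209, from the gene for transferrin, an iron carrier that the liver secretes. Replicate 1 had 26.8 TPM of it and replicate 2 had 358 TPM, and the whole gene moved with it, from 57.6 to 884 TPM. Its share of the gene was 46.5% and 40.5% (deposited IsoPct), and only 10 of its 433 bases were its own.

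**Figure D1:**
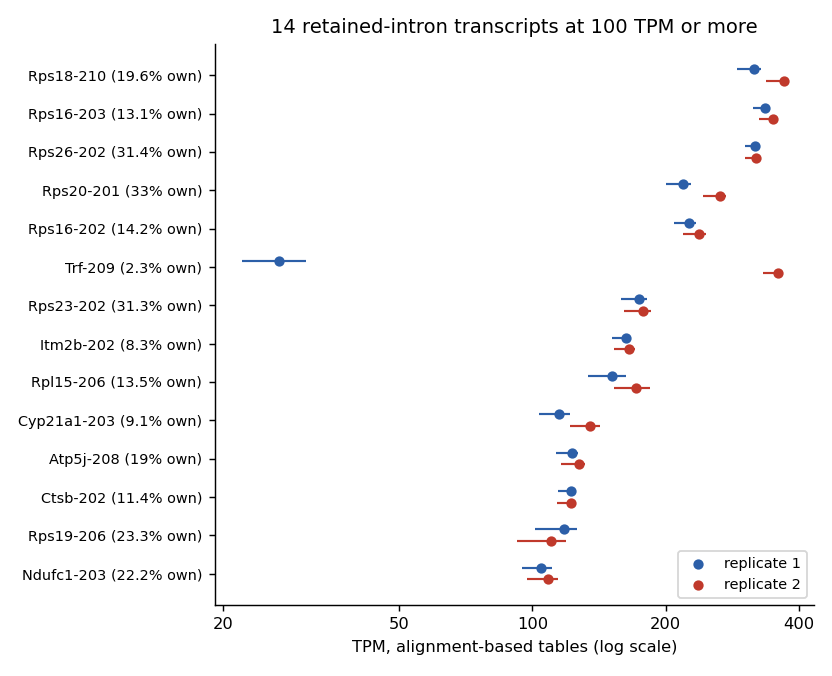
TPM on a log axis of 14 of the 15 retained-intron transcripts at a mean of 100 TPM or more, in replicates 1 and 2 of the alignment-based tables, with points for the deposited estimates and lines for the deposited credibility intervals; the percent of own bases is given after each name. Trf-209 lies at 26.8 and 358 TPM in the 2 libraries, and the others plotted lie much closer together.

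Per gene, retained-intron transcripts took a modest share as a rule and nearly all of the TPM in a few genes. The share, their summed TPM as a percent of the gene's, had a median of 10.5% in replicate 1 and 12.8% in replicate 2. Pooled over all 6329 genes, it was 13.7% ± 1.12 (SD, n = 2), beside 77.5% ± 1.12 for protein_coding transcripts of the same genes, 4.83% for processed_transcript and 3.78% ± 0.0138 for nonsense_mediated_decay. By expected counts the pooled share was lower, 7.75% ± 0.891, as shorter transcripts weigh less there. The mean share reached 25% in 1459 genes (23.1%), 50% in 272 genes (4.30%) and 90% in 11 genes (21 alignment-free), while it was under 5% in 1495 genes. Counting only transcripts with a complete intron, the pooled share was 4.13% ± 0.404, and 37 genes reached 50%. A retained-intron transcript was the highest transcript of its gene in 262 genes (4.14%) by the mean. This held in 262 genes in replicate 1 and 275 in replicate 2, of which 202 were shared.

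The 10 largest mean shares, a ranking that is given as a description, included 5 genes for ribosomal proteins of the cytosol or the mitochondrion. Rps16 (chr7:28350652-28353155) had shares of 98.2% and 98.1% (mean 98.2% ± 0.0901), with 562 and 587 of its 572 and 598 TPM on 2 retained-intron transcripts. Rps26 had 97.1% and 96.8%, but 51.3% and 53.5% in the alignment-free tables. Rps20 had 96.8% and 96.6%. In Rps20, both transcripts contain a complete intron; Rps20-201, with the first intron printed above, had 219 and 265 TPM. Rps26 had no transcript with a complete intron. These 3 genes encode proteins of the small ribosomal subunit, and the annotation holds 3 transcripts for each, so 1 transcript of another type was left to take the remaining share.

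Taf10 (chr7:105739393-105744361), a subunit gene of the general transcription factor TFIID, had shares of 97.6% and 97.0% on 61.4 and 55.3 TPM. Transcripts with a complete intron took a mean of 19.9% of the Taf10 total. Rgs11, a regulator gene of G-protein signalling, had 99.1% and 95.6%, with 8 of its 11 transcripts of the retained-intron type and 75.9% of the gene in those with a complete intron. The mitochondrial ribosomal protein genes Mrpl57 and Mrps26 had 96.3% and 96.6%, and 95.6% and 94.96%. Mrps26-201 holds the 80-base intron printed above, and its gene stood at 23.8 and 25.6 TPM. Thoc1, of the THO complex that couples transcription to export, had 91.9% and 92.5% from 11 transcripts. Dynlt1c, a dynein light chain gene, had 92.4% and 96.6% (50.1% and 52.8% alignment-free), and AA465934 had 95.6% and 87.1% with the widest gap between the libraries of the 10.

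Single transcripts with 1 of the short introns printed above made up much of 3 further genes. Ncl, for nucleolin, a major protein of the nucleolus, had Ncl-202 at 70.46 and 83.16 TPM, or 70.3% and 70.1% of the gene. Prelid1, for a mitochondrial lipid transfer protein, had Prelid1-202 at 59.4 and 62.0 TPM, or 91.4% and 90.6% of the gene. Timm17b, for a subunit of the mitochondrial import channel, had 48.1% and 49.5% in Timm17b-203. In these 3 genes the libraries differed by under 2 percentage points.

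Several lists of splicing genes had median shares above that of all 6329 genes, 11.8%. The list medians are descriptions, were not tested and were not adjusted for the number of retained-intron transcripts per gene. The share rose with that number, from a median of 5.18% in the 2246 genes with 1 to 23.5% in the 1247 genes with 4 to 6. Of 30 genes for SR proteins and SR-related splicing regulators at 5 TPM, 27 had such transcripts, 113 in all. These genes had a median share of 25.3%, with 4 genes above 50%. Counting only transcripts with a complete intron, the list median was 13.9%. Srsf11 had 64.8% and 76.0%, on 38.2 and 58.5 TPM. Rsrp1 had 60.8% and 69.2%, all on its single such transcript, Rsrp1-204, which contains 8 complete introns and had 98.1 and 89.5 TPM. Only 13 of the 3051 bases of Rsrp1-204 are its own. Clasrp had 60.9% and 61.4%, and Snrnp70, the 70-kilodalton protein gene of the U1 particle that recognises donor sites, 49.6% and 56.4%. The classical SR protein genes stood lower, with Srsf5 at 24.3% and 20.7%, Srsf7 at 23.9% and 26.7%, Srsf2 at 22.1% and 21.3%, and Srsf6 at 20.1% and 16.6%.

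The 9 kinase genes of splicing factors with such transcripts, 37 transcripts in all, had a median share of 34.6%, and the 4 Clk genes the highest of them. Clk4 had 57.8% and 60.1%, Clk2 47.2% and 50.8%, Clk1 45.6% and 49.2%, and Clk3 48.3% and 45.0%. Transcripts with a complete intron took a mean of 11.4% of the gene in Clk4, 18.4% in Clk1 and 20.8% in Clk3. In Clk2 they took the whole share, a mean of 49.0%. Counting only such transcripts, the list median was 11.4%, and that of all 6329 genes 0%. The Clk1 values overlapped those of Clk2 and Clk3 in range, so no order among these 3 stood out from the spread between the libraries. In Clk1 the highest retained-intron transcript, Clk1-204 with 4 complete introns, had 7.91 and 12.5 TPM. Srpk1, another SR protein kinase gene, had 35.8% and 33.4%, whereas Dyrk1a had 2.71% and 2.75%.

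Among the 6 expressed genes with described regulated retention, which have 29 retained-intron transcripts, the median share was 42.3%. Counting only transcripts with a complete intron, it was 11.3%. Ogt, for the enzyme that adds N-acetylglucosamine to intracellular proteins, had 42.6% and 42.9%. Its transcript Ogt-204, with 2 complete introns, carried 31.4 and 32.9 TPM, the credibility intervals overlapping (29.2 to 31.8 and 30.7 to 33.3 TPM). Mat2a, for the enzyme that makes S-adenosylmethionine, had 15.9% and 21.8%, and Lmnb1, for lamin B1, 11.99% and 12.2%. The list also includes Clk1 and Clk4.

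Other RNA-handling lists lay nearer to the median of all genes. The 29 genes of the hnRNP and related RNA-binding list had a median of 17.8%, from 0.814% in Ptbp3 to 58.8% in Tia1, a regulator of splicing and of stress granules. Rbm5 had 44.7% and 58.8%, and Hnrnph3 34.3% and 50.8%, both higher in replicate 2 by the test given below. The 25 genes of the spliceosome core had 12.3%, led by Snrpb2, a U2 particle protein gene, at 64.6% and 71.4%, though in the alignment-free tables Snrpb2 had 4.36% and 5.35%. The 9 genes of nonsense-mediated decay and the exon junction complex had 20.1%, led by Rbm8a, for the junction protein Y14, at 67.4% and 65.5%. The 14 RNA helicases had 15.1%, with Eif4a2 highest at 30.9% and 38.5%. The 9 genes of nuclear RNA decay had 9.37% (14.4% alignment-free), with Zfc3h1, which links polyadenylated nuclear RNA to the exosome, highest at 44.8% and 48.4%.

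Ribosomal protein genes split sharply. Of 64 with such transcripts, 6 had a share of 50% or more, while the median was 2.10%, below that of all genes. Beyond Rps16, Rps26 and Rps20, the 6 included Rps18 (80.1% and 86.7%) and Rps23 (79.3% and 77.2%). In the alignment-free tables Rps18 had 10.7% and 11.4% and Rps23 16.1% and 18.2%, and the list median was 4.76%. All 6 encode proteins of the small subunit, and the highest of the large subunit was Rpl15 at 38.6% and 41.2%.

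Many genes that define the gland have no annotated retained-intron transcript. Of all 10538 genes at 5 TPM or more, 6329 (60.1%) have such a transcript. Of 19 steroid synthesis and cortical identity genes at 5 TPM, 12 have none, among them Star, Hsd3b1 and Cyp11b1, and the 7 others had a median share of 8.86%. Soat1, for the enzyme that esterifies cholesterol for storage, was highest at 29.2% and 31.0%, on 62.8 and 62.2 TPM. In the alignment-free tables the Soat1 share was 19.3% and 23.2%, and by expected counts its mean was 6.38%. Transcripts with a complete intron took a mean of only 2.66% of the Soat1 TPM. Cyp21a1, the steroid 21-hydroxylase gene, had 5.26% and 8.55%. Its single such transcript Cyp21a1-203 still reached 115 and 135 TPM, as the gene is abundant; it holds the 68-base intron printed above, the eighth of 9. Cyp11a1, for the side-chain cleavage enzyme that begins steroid synthesis, had 2.12% and 2.56%, and Nr5a1, for the transcription factor SF-1, 8.02% and 9.70%. Of 15 chromaffin genes, 11, including Th, Dbh and Pnmt, have no such transcript. Chga, for chromogranin A of the secretory granules, had 3.01% and 2.98%, and the vesicular monoamine transporter genes Slc18a1 and Slc18a2 had 10.1% and 19.3%, and 10.8% and 10.5%. The median of these 4 genes was 8.93%, and 13.4% in the alignment-free tables; neither list was tested against other genes.

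**Figure D2:**
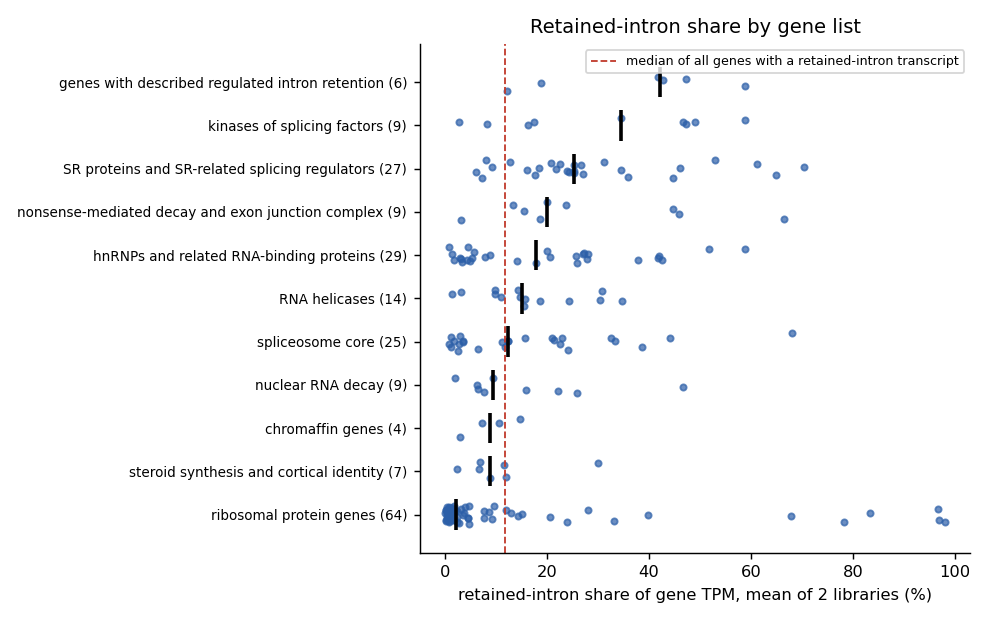
Retained-intron share of gene TPM (percent, mean of the 2 libraries) for each gene of the 11 lists, one point per gene with vertical jitter, the number of genes in parentheses; black bars are list medians and the dashed line is the median of all 6329 genes, 11.8%. The list medians run from 2.10% for ribosomal protein genes to 42.3% for genes with described regulated retention.

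The libraries ranked genes alike but differed in level, in the same direction for most genes. The Spearman rho of the share over 6329 genes was 0.930, as a description across genes that share libraries and annotation. Shares lay within 10 percentage points of each other in 91.7% of genes, with a median absolute difference of 2.62 points. The share was higher in replicate 2 in 4644 genes (73.4%) and lower in 1643, with a median difference of 1.67 points. Transcripts of the nonsense_mediated_decay and processed_transcript types in the same genes showed a median difference of 0 points, and the protein_coding share was lower in replicate 2 by a median of 2.02 points (difference -2.02). The nonsense_mediated_decay share was higher in replicate 2 in 1160 of 2482 genes and lower in 934. The processed_transcript share was higher in 1555 of 3171 genes and lower in 1129.

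For single transcripts at 1 TPM or more, the median log2 ratio of TPM, replicate 2 over replicate 1 with 0.1 TPM added, was 0.35, and 76.4% were higher in replicate 2. The ratio was 0.04 for protein_coding transcripts, 0.13 for nonsense_mediated_decay and 0.19 for processed_transcript in these genes. The deposited credibility intervals of the 2 libraries overlapped for 6416 of the 7287 transcripts (88.0%). Where they did not, 844 transcripts were higher in replicate 2 and 27 lower. The same count is not given here for other types of transcript, so it shows no difference between types. The medians by type above are not matched for level. For retained-intron transcripts the difference narrowed with level, from a median of 0.41 at 1 to 2 TPM to 0.07 at 10 to 50 TPM. At 1 to 2 TPM the medians were 0.14 for protein_coding, 0.22 for nonsense_mediated_decay and 0.27 for processed_transcript. At 10 to 50 TPM they were 0.01, 0.05 and 0.05 in the same order.

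The difference was wider the more of a transcript was its own sequence. The median log2 ratio was 0.15 in the 829 transcripts with under 10% own bases, 0.25 at 10 to 25%, 0.35 at 25 to 50%, 0.41 at 50 to 75% and 0.44 in the 737 with 75% or more. The percent higher in replicate 2 went from 61.9% to 93.1% along the same classes. Level differed along the classes too, from a median of 2.69 to 1.58 TPM. Within 1 to 2 TPM the medians were closer, 0.35 and 0.45 in the lowest and highest class, and the percent higher in replicate 2 was 63.4% and 93.9%. At 5 TPM or more the medians were further apart, 0.05 in 208 transcripts of the lowest class and 0.40 in 37 of the highest. There, 57.7% and 89.2% were higher in replicate 2. Over all levels of 1 TPM or more, the median was 0.37 in transcripts with a complete intron and 0.33 in those without. Among other types in the whole tables, 32 sense_intronic transcripts, which lie within introns, had a median log2 ratio of 0.40, and 319 lincRNA transcripts 0.16. What sets the libraries apart in this way was not tested.

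**Figure D3:**
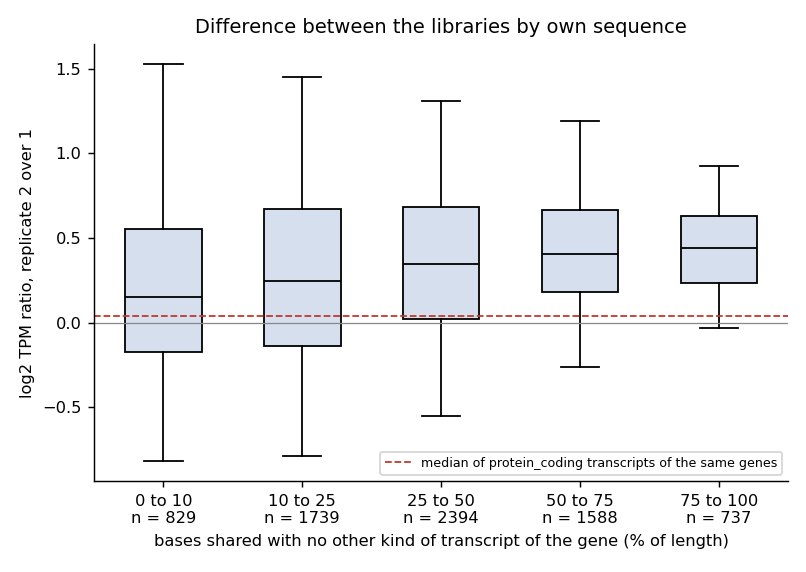
Log2 TPM ratio of replicate 2 over replicate 1 for the 7287 retained-intron transcripts at 1 TPM or more, by the percent of each transcript's bases that no other type of transcript of the gene shares; boxes are quartiles, centre lines medians, whiskers the percentiles 5 and 95, and the dashed line is the median of protein_coding transcripts, 0.04. The medians step from 0.15 to 0.44. The dashed line is not matched to the boxes for level.

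Single genes were compared between the libraries by Fisher's exact test, two-sided, on rounded expected counts of retained-intron against other transcripts, with Benjamini-Hochberg adjustment over all 8427 genes with 10 or more counts in each library. A gene was called at an adjusted p under 0.05 and a difference of 10 percentage points or more. The test treats reads as independent and estimated counts as observed, so it leaves out the uncertainty in dividing reads among transcripts. It compares these 2 libraries, not conditions. Of all genes tested, 3.67% were called higher in replicate 2, 0.997% lower, and 4.66% in either direction. At 5 TPM or more, 195 genes (3.08%) were called higher in replicate 2 and 29 (0.458%) lower, and 201 of these 224 had a difference of the same sign in the alignment-free tables. In this subset the percent called was a little below that of all genes tested.

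Rbm5, a splicing regulator, showed the clearest difference of the listed genes: its retained-intron transcripts took 52.1% of 5000 counts in replicate 1 and 72.4% of 4133 in replicate 2 (Fisher's exact test, adjusted p = 6.44e-85). Srsf11 was called too, with 59.3% and 70.3% of counts (exact adjusted p = 8.70e-23), as were the regulator Tra2a, higher by 13.1 points (exact adjusted p = 9.50e-13), and U2af1l4, a homologue of the small subunit that recognises acceptor sites, higher by 15.7 points (exact adjusted p = 5.22e-08). Hnrnph3 went from 17.6% to 31.0% (exact adjusted p = 1.11e-08) and Prpf3 from 26.1% to 41.1% (exact adjusted p = 9.38e-07). The alignment-free TPM share of Prpf3 was 46.6% and 43.9%, the reverse direction. By list, 3 of 27 SR and SR-related genes, 2 of 29 of the hnRNP list and 1 of 25 of the spliceosome core were called. All were higher in replicate 2, and no gene of the other lists was called. Among all genes at 5 TPM or more, 3.08% were called higher and 0.458% lower. The list counts are small and were not tested against these shares. Rsrp1 was higher by 7.40 points, and Clk1 by 7.28 points, under the limit of 10 points.

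The 5 widest called differences upward were those of Rad9a, a DNA damage checkpoint gene, Taf1c, of the RNA polymerase I initiation factor SL1, Gnb4, a G-protein beta subunit gene, Carmil3 and Icosl, a costimulatory ligand gene. Rad9a went from 9.93% of 269 counts to 43.1% of 259 counts (exact adjusted p = 1.39e-16), and Taf1c from 14.7% to 45.0% (exact adjusted p = 3.66e-38). Gnb4 went from 38.7% to 68.5% of counts (exact adjusted p = 4.49e-51), but in the alignment-free tables its TPM share was 22.4% and 19.8%, the reverse direction. Icosl went from 26.3% to 52.1% (exact adjusted p = 3.18e-16), with 39.3% and 53.5% of TPM in the alignment-free tables. Few bases were their own in Rad9a-205 (73 of 2101), Gnb4-204 (86 of 2357) and Carmil3-208 (0 of 4762). The deposited credibility intervals of these transcripts overlapped between the libraries, as they did not for Taf1c-206 (181 own bases of 3474). The p-values above do not take account of this. The genes called had a median level of 12.3 TPM, below the 18.1 TPM of those tested.

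The widest called differences downward came partly from genes whose level differed widely. Hgfac, for a protease that activates hepatocyte growth factor, stood at 1.21 and 14.2 TPM, and its retained-intron counts fell from 60.6% of 46 to 20.5% of 691 (exact adjusted p = 3.15e-07). Aadac, for a microsomal esterase abundant in liver, stood at 0.76 and 9.65 TPM and rested on 15 counts in replicate 1. Its alignment-free share was 0% and 7.14%, the reverse direction. H2-Q10, for a secreted histocompatibility protein of liver, stood at 0.83 and 18.2 TPM. Of the 29 genes called lower, 5 differed over 8-fold in gene TPM, against 30 of all 6329 genes. None of the 195 called higher did, which is near the share over all genes. Tle6 (37.9% and 7.41% of counts) and Uxt (70.4% and 44.7%) were called lower with gene levels of 8.16 and 4.55 TPM, and of 11.9 and 12.8 TPM. In the alignment-free tables the Uxt share was 88.0% and 91.6%, the reverse direction. Without genes over 8-fold apart, a choice made after the data were seen, the median log2 ratio of transcripts stayed at 0.35 and 384 of all genes tested were called, against 393 with them.

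**Figure D4:**
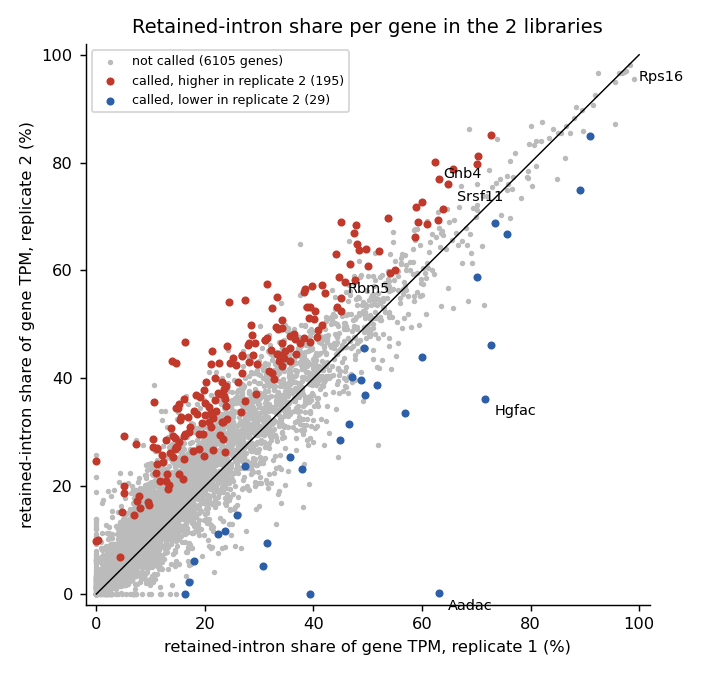
Retained-intron share of gene TPM in replicate 1 and replicate 2 (percent) for 6329 genes; red points are the 195 genes called higher in replicate 2 and blue points the 29 called lower by Fisher's exact test on counts, and the line marks equal shares. The cloud lies above the line for 4644 genes, and Hgfac and Aadac lie far below it.

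The 2 kinds of table gave the same typical share and often disagreed on a given gene. The alignment-free tables had medians of 10.5% and 12.9% and a pooled share of 15.7% ± 0.894, and 280 genes at 50% or more. Of these, 154 were also among the 272 of the alignment-based tables, which is 55% of the former and 56.6% of the latter. Mean shares lay within 10 points in 82.1% of genes, with a Spearman rho of 0.798 as a description across genes. The median absolute difference between the tables was 2.71 points, close to the 2.62 points between the libraries. Gaps of over 10 points were more frequent between the tables than between the libraries, where 91.7% of genes lay within 10 points. Gaps of over 50 points went both ways: 17 genes were higher in the alignment-based tables and 23 in the alignment-free ones.

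Some abundant transcripts of the alignment-based tables were listed at 0 in the alignment-free ones. Rps18-210 (499 bases), among the highest in the alignment-based tables, was listed at 0 in the alignment-free ones, and the share of Rps18 was 83.4% in the former and 11.04% in the latter. Grcc10-203, Uchl1-202 and Rnaseh2c-203 were listed at 0 likewise. Uchl1, for a deubiquitinase abundant in neuroendocrine cells, thus had a share of 72.8% in one kind of table and under 4 in the other (2.52% and 3.85% in replicates 1 and 2). In all, 43 of the 321 transcripts at 10 TPM or more were at 0 alignment-free; their median length was 369 bases, against 688.5 for the other 278. Of transcripts at 1 TPM or more, 28.2% of those up to 500 bases were at 0 alignment-free, and 1.17% of those over 2000 bases. The tables take effective length as the length minus 99 bases in one and minus 326.1 and 324.1 bases (replicates 1 and 2) in the other, for long transcripts.

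In the reverse direction, Rps27 had a share of 0.930% in the alignment-based tables and 99.8% and 99.7% in the alignment-free ones, and Cox6a1, for a subunit of cytochrome c oxidase, 0.855% against 89.6% and 90.6%. Rps16 kept a large share in both, led by Rps16-203 (1162 and 1179 TPM alignment-free), but Rps16-202, with the printed 89-base intron, had 226 and 238 TPM alignment-based and only 3.56 and 2.24 TPM alignment-free. Shares that the tables agreed on within 5 points included those of Taf10, Rps20, Mrps26, Thoc1, Ogt and Clk1. Among other genes named above, the alignment-free share was lower by over 1.5 times in Clk3 (28.6% and 32.9%), Hnrnph3 (21.2% and 32.4%), Taf1c (7.48% and 13.8%), Carmil3 (33.5% and 35.5%) and Trf (34.7% and 21.001%). It was higher by over 1.5 times in Eif4a2 (66.4% and 66.2%), U2af1l4 (54.9% and 70.9%), Lmnb1 (28.6% and 27.5%) and Slc18a2 (19.6% and 19.2%). Cyp21a1-203 had 154 and 187 TPM alignment-free, and its gene a mean share of 5.17% there. Of the genes with 50% or more of their TPM in transcripts with a complete intron, 30 of 37 were the same in both kinds of table.

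**Figure D5:**
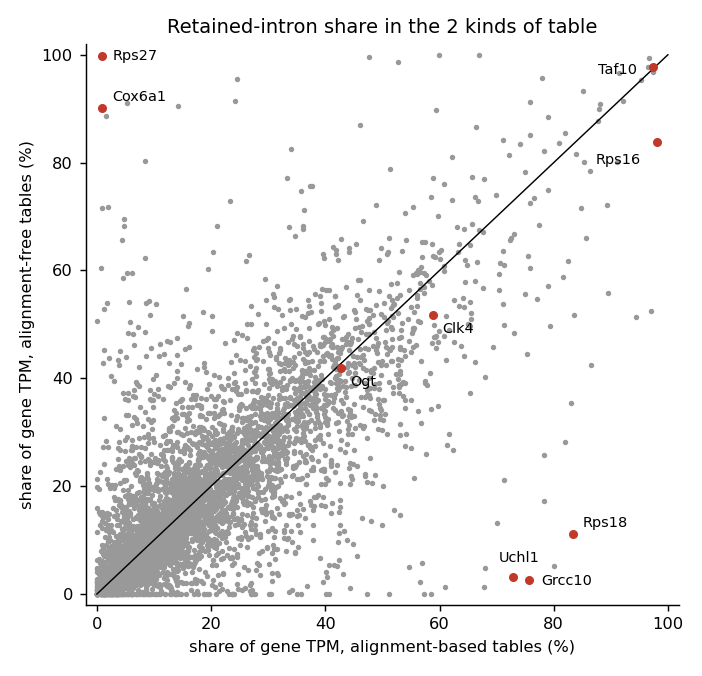
Mean retained-intron share of gene TPM (percent) in the alignment-based and the alignment-free tables for 6329 genes, with the line of equal shares and named genes in red. Uchl1, Grcc10 and Rps18 lie along the lower right, Rps27 and Cox6a1 at the upper left, and Ogt, Clk4 and Taf10 near the line.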

How the data were processed

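Total RNA was measured in 2 libraries of 1 group. For each, the authors deposited a gene table and a transcript table from alignments to the transcriptome, with expected counts, TPM and IsoPct (the percent of a gene's TPM in a transcript), and an alignment-free transcript table with estimated counts and TPM, made against mm10 and GENCODE M21 per the deposited descriptions. The labels and headers name no program or version and do not say whether counting used the strand; reads of antisense or similar genes are uncertain. Transcript type came from the alignment-free tables' names, joined by transcript identifier; every retained_intron transcript matched. Shares were computed here from TPM. Expected counts were rounded for Fisher's exact test (scipy 1.17.1), which was tested on simulated data. Introns and sequences came from the GENCODE M21 annotation and transcripts. The genes named were the 10 with the largest share, the 10 with the largest summed TPM, 5 called each way, 5 furthest apart each way between tables, up to 4 per list, and 2 each side of the limit, leaving out genes of mitochondrial origin; other genes, among them those of the printed introns, were chosen after their values were seen. The transcripts, the 11 gene lists and the tests were chosen with earlier results of these data known. Alternatives covered the table, gene floor, detection level, counts in place of TPM, test limits and pseudocount, and each replicate alone. With 1 group, no comparison between conditions exists. Standard deviations over 2 libraries are imprecise, and count limits cover counting error only. Some members that the rule names are not reported here.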

Additional observations from a re-analysis of the deposited data

How the results depend on the processing

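The number of retained-intron transcripts at 1 TPM (7287) became 11405 at a limit of 0.5 TPM and 3512 at 2 TPM. It was 10616 in the alignment-free tables and 6337 to 8100 with one library left out, within 1.5 times of the main count. The median share per gene (11.7%) ran from 10.5% to 12.8% with one library left out, and was 6.08% from expected counts and 0% for transcripts with a complete intron only, since most genes have none of these. The pooled share (13.7%) was 15.7% in the alignment-free tables, 7.75% from expected counts, 4.13% for complete introns only, and 12.9% to 14.5% with one library left out. Genes with 50% or more of their TPM in retained-intron transcripts (272) numbered 249 to 308 with one library left out, 593 with no gene floor, 152 from expected counts and 37 with complete introns only. Genes called between the libraries (393) numbered 1068 at a minimum difference of 5 points and 2399 with none, and 332 to 401 under the other alternatives run. In every setting of that test more genes were higher than lower in replicate 2, 283 against 84 in the alignment-free tables. The median log2 ratio (0.35) was 0.29 with a pseudocount of 0.5 TPM, 0.24 with 1 TPM and 0.29 in the alignment-free tables. Restricting to complete introns and leaving out genes over 8-fold apart were chosen after seeing the data. Of 77 named genes, 19 moved by over 25 points in the alignment-free tables, 6 by counts, and 1 with either library left out. Where a value moved, the cause was not tested. No paired analysis was possible because the series has 1 group. Depth limits single transcripts under 1 TPM.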

Other observations

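Some retained introns house genes of small nucleolar RNAs, which guide the chemical modification of ribosomal and other RNAs and are cut out of the introns of their host transcripts. A complete annotated snoRNA or scaRNA gene lay on the same strand within an exon of 105 retained-intron transcripts (0.631%), in 46 genes; this set was chosen after the data were seen. These transcripts took 1.08% ± 0.105 (SD, n = 2) of the summed TPM, 2.37% in the alignment-free tables, and 3 of them reached 10 TPM. Rps20-202, which covers Gm24016, had 76.1 and 53.8 TPM in replicates 1 and 2, and 561 and 547 TPM alignment-free. Rplp2-205, which covers Snora52, had 48.5 and 59.6 TPM. Eif4a2-218, which covers Snora81, had 9.86 and 10.9 TPM, and the helicase gene Eif4a2 had further such transcripts over Snord2 and other small RNA genes. Ncl-206, over Snora75, had 5.15 and 6.57 TPM, far below the 70.5 and 83.2 TPM of Ncl-202, which covers no such gene. The host RNA Gas5, with 20 retained-intron transcripts the gene with the most, had a share of 28.1% and 29.3%. Whether reads of the small RNAs themselves add to these levels was not tested. The 46 genes had a median share of 13.4%, against 11.8% for the other genes (22.1% for the 46 in the alignment-free tables), and a median of 4 such transcripts each against 2 overall.

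A gene's share went with the number of its retained-intron models. It had a median of 5.18% in the 2246 genes with 1, 12.6% in 2532 genes with 2 to 3, 23.5% in 1247 genes with 4 to 6, and 36.2% in 304 genes with 7 or more. The alignment-free medians were 5.18%, 12.8%, 23.4% and 35.9%. Median gene levels along these classes were 15.6, 17.6, 21.9 and 26.5 TPM. Cspp1, a gene of the centrosome with 16 such transcripts, had 58.7% and 66.3%, and Hand2os1, the noncoding neighbour of Hand2 with 18, had 50.8% and 55.3%. The 34 genes typed processed_transcript, which encode no annotated protein, had a median share of 28.5%, against 11.7% for 6292 protein-coding genes.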
